A study of Drosophila melanogaster with 6 samples.

Results

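Homeobox genes code for transcription factors that bind DNA through a homeodomain, and 59 of the 17868 genes listed in the deposited files were examined here. They were chosen by symbol from a list of fly homeobox genes with known parts in neuron identity, and all 59 were found. The data were counts per gene from RNA sequencing of clock neurons of adult Drosophila melanogaster brains, sorted as GFP-positive and DAPI-negative cells, with about 2000 live cells per sample. The Prp3-RNAi group (3 libraries) carried the clock-neuron driver Clk-GAL4, the nuclear reporter UAS-GFP-NLS and the hairpin transgene UAS-Prp3-RNAi, which is directed against the gene of a spliceosome protein. The control group (3 libraries), labelled wildtype, carried the same driver and reporter over a plain chromosome and no hairpin. Flies of both groups had 5 days of alternating 12 h light and 12 h darkness before they were taken at zeitgeber time 14, counted in hours from lights-on. Titles pair the libraries of the same number across the groups, but the labels do not say what a pair shares, how many brains were pooled or whether libraries came from separate fly cultures, so p-values measure the spread between these samples.

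Homeodomain proteins set which genes a cell can use, and many of them act in combinations that mark single classes of neurons. Hox proteins give segments of the body and nerve cord their identity along the head-to-tail axis, together with the cofactors exd and hth. POU, LIM, PAX, sine oculis-type, paired-like and NK-type proteins act in the brain, eye and optic lobe as selectors of neuron type, of the path of an axon or of the transmitter a neuron makes. Clock neurons are a mixed set of small groups in the lateral and dorsal brain, and a gene used in 1 of these groups only is read here as an average over all sorted cells.

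Gene counts per library ran from 28980608 to 30637247 in the Prp3-RNAi group and from 24477244 to 32551739 in the control group, and all levels are given as CPM, in which each count is divided by the size of its library after TMM scaling, so that 1 CPM stood for 23.1 to 31.9 counts. The targeted gene Prp3 (chromosome 3L, 19910300 to 19912504 in build BDGP6.54, which has dm6 coordinates) had 26.98, 28.3 and 10.8 CPM in Prp3-RNAi libraries 1 to 3, against 45.6, 68.8 and 29.4 CPM in control libraries 1 to 3. It was lower in all 3 pairs, and edgeR's quasi-likelihood test put the log2 fold change at -1.16 (SE 0.24), with 0.384 as its adjusted p-value, short of the threshold of 0.05. Its exons overlap those of Mtr3. The 8 clock genes used as markers summed to 2179 to 2535 CPM in the Prp3-RNAi libraries and 2367 to 3268 CPM in the control libraries, and the 7 pan-neuronal markers to 5776 to 6832 CPM and 5804 to 6818 CPM. Of the 8 clock genes 1 had an unadjusted p-value under 0.05 by edgeR, a level reached by 9.98% of all tested genes. This was cry, the blue-light receptor, which had 85.2, 81.1 and 90.9 CPM in the Prp3-RNAi libraries, against 222, 189.5 and 105 CPM in the control libraries (p-values of 0.0128 unadjusted and 0.428 adjusted, edgeR). The repressor gene vri had 165, 238 and 227 CPM in the Prp3-RNAi libraries, against 322, 256 and 251 CPM in the control libraries, again with no overlap of the groups, at an adjusted p-value of 0.573 by edgeR. The 8 glia markers summed to 344 to 556 CPM and 297 to 754 CPM, mostly from Gs2, nrv2 and Eaat1, while the glial homeobox gene repo lay at 0.366 to 0.571 CPM in Prp3-RNAi libraries and 0 to 1.56 CPM in control libraries. The 14 photoreceptor markers summed to 245 to 411 CPM and 284 to 376 CPM, of which norpA alone gave 206 to 354 CPM in Prp3-RNAi libraries and 214 to 293 CPM in control libraries. Of the 11 photoreceptor markers tested 2 had an unadjusted p-value under 0.05, and both were higher in Prp3-RNAi in all 3 pairs. The photoreceptor myosin gene ninaC had 7.54, 1.999 and 3.01 CPM in the Prp3-RNAi libraries, against 0.0313, 0.0707 and 0.217 CPM in the control libraries (adjusted p-value 0.435, edgeR), with no overlap of the groups, and the arrestin gene Arr2 had 23.03, 1.90 and 23.5 CPM in the Prp3-RNAi libraries, against 4.23, 0 and 6.76 CPM in the control libraries (adjusted p-value 0.475, edgeR). The main opsin gene ninaE had 0.133, 2.95 and 40.3 CPM in the Prp3-RNAi libraries, against 54.01, 0 and 43.5 CPM in the control libraries. The 6 Kenyon cell markers summed to 465 to 601 CPM and 440.5 to 516 CPM. The 6 hemocyte and fat body markers summed to 5.17 to 29.4 CPM and 13.4 to 89.5 CPM, and the hemocyte genes Hml and NimC1 stood at 45.9 and 29.0 CPM in control library 3 and at no more than 0.188 CPM in the other 5 libraries. The 11 clock-neuron peptide genes summed to 7254 to 30226 CPM and 13586 to 36096 CPM, with 3 of 11 (Trissin, CNMa and Dh31) at an unadjusted p-value under 0.05 and 0 called by edgeR. Of the 11, 9 had a log2 fold change below 0, and 2, ITP and sNPF, above 0 (0.59 and 0.05). Pdf had 302, 155 and 19961 CPM in the Prp3-RNAi libraries, against 15942, 2566 and 17385 CPM in the control libraries. Trissin had 0, 68.3 and 7.57 CPM in the Prp3-RNAi libraries, against 2356, 718 and 1687 CPM in the control libraries. CCHa1 had 0, 92.2 and 58.7 CPM in the Prp3-RNAi libraries, against 524, 601 and 404 CPM in the control libraries, and CNMa had 540.4, 218 and 612 CPM in the Prp3-RNAi libraries, against 1520.3, 1334 and 1089.8 CPM in the control libraries. Dh31 had 1977, 988 and 3696 CPM in the Prp3-RNAi libraries, against 2063, 2212 and 4916 CPM in the control libraries. The adjusted p-values of these 5 in edgeR's quasi-likelihood test were 0.505 for Pdf, 0.438 for Trissin, 0.515 for CCHa1, 0.384 for CNMa and 0.498 for Dh31. In bulk RNA a smaller number of cells of a type and less RNA per cell cannot be told apart.

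Most of the 59 members were detected, but a minority stood at a firm level in every library. Members were sorted by level into 4 classes. By the limits used, 20 of 59 members were on (at least 5 CPM in all 6 libraries), 28 were low, 4 reached 5 CPM in at least 1 library and stayed under 1 CPM in at least 1 other, and 7 were near zero (under 1 CPM in all 6). Of all 17868 listed genes 33.6% were on and 45.8% near zero, against 33.9% and 11.9% of the members. The members were chosen for known parts in neuron identity, with earlier results of these data known. Of 43 further fly homeobox genes 6.98% were on and 41.9% near zero. In a single Prp3-RNAi library 28, 33 and 30 members reached 5 CPM, and in a single control library 29, 33 and 30. Closest above the limit for an on gene were Optix, with a lowest value of 5.15 CPM, and Lim3, with 5.51 CPM. Closest below it were vvl, with a lowest value of 4.57 CPM, and bsh, with 3.97 CPM. The plot of levels by library shows that the members spread over a range from 0 counts to 4825 CPM, and that members with a low level also had the widest scatter.

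**Figure D1:**
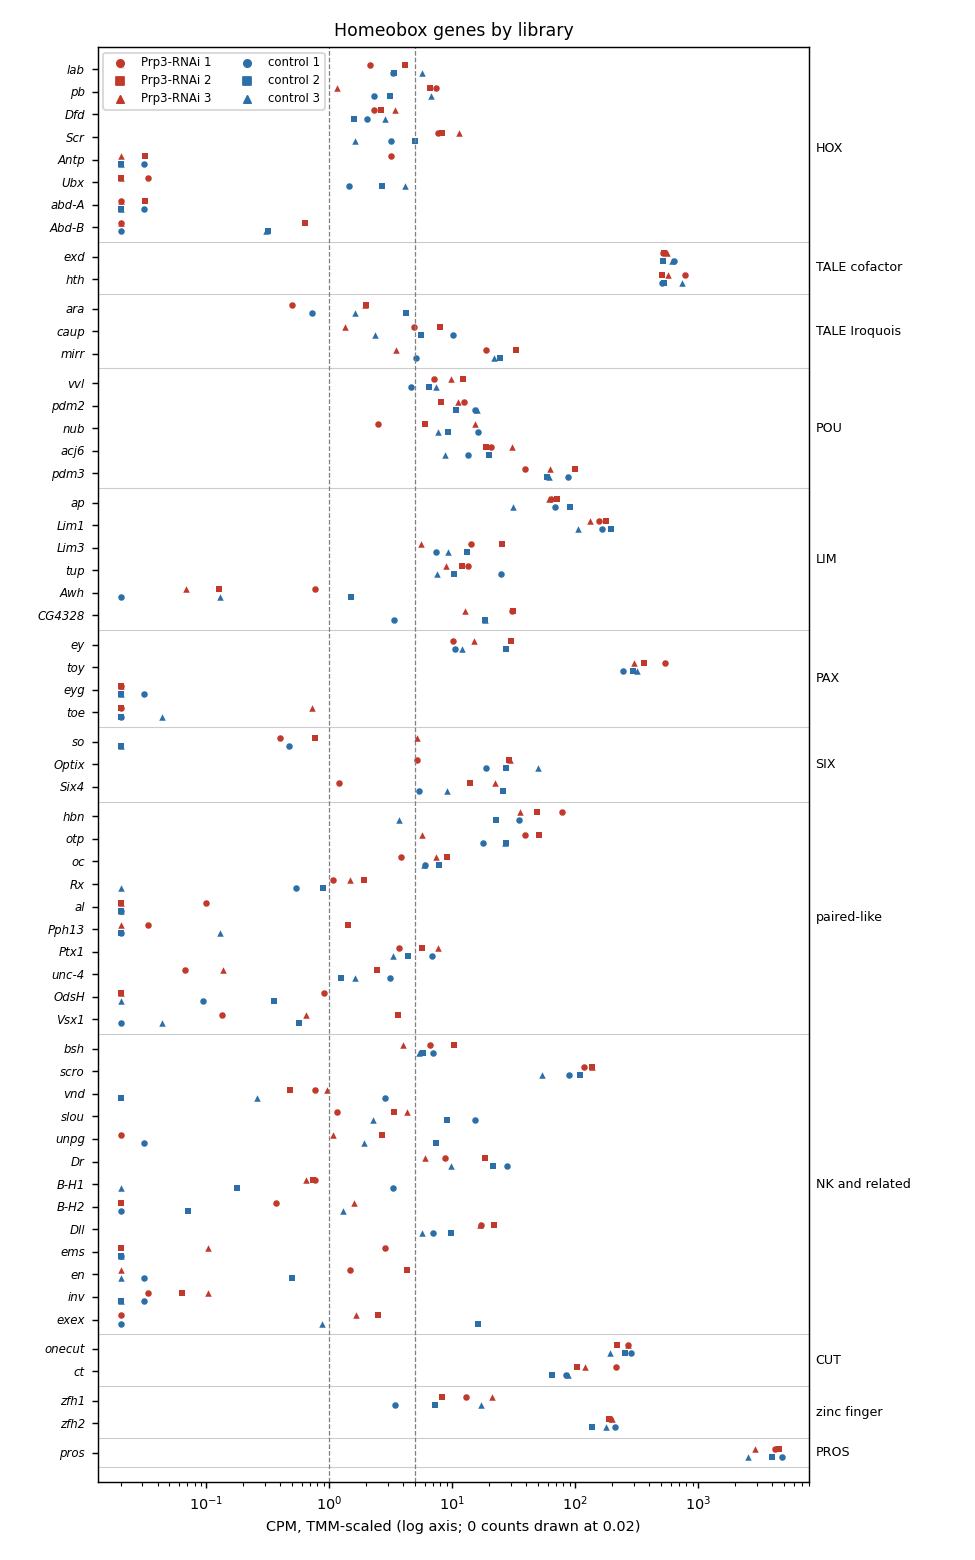
CPM of each of the 59 homeobox genes in 3 Prp3-RNAi libraries (red) and 3 control libraries (blue), on a log axis, with 1 symbol per pair, genes grouped by family, and dashed lines at 1 and 5 CPM. The gene pros lies furthest right, at 2558 to 4825 CPM, and eyg, abd-A, inv and al lie furthest left, with a highest value of 0.1 CPM.

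A few members stood far above the rest. The gene pros, whose product moves to the nucleus when neural stem cells divide to make neurons, took 51.7% to 61.5% of the summed CPM of all 59 members in the Prp3-RNAi libraries and 49.1% to 64.4% in the control libraries. It had 4244, 4553 and 2901 CPM in Prp3-RNAi libraries 1 to 3, against 4825, 3979.6 and 2558 CPM in control libraries 1 to 3. The third library of each group was the lowest of its group, and the groups overlapped. Divided by annotated exonic length, which assumes even coverage along the gene, the 20 on members ran from 169.8 CPM per kb of exon for exd to 2.65 CPM per kb for pdm2. After exd came pros with 154, toy with 87.1, hth with 51.3, scro with 50.9, Lim1 with 39.1 and onecut with 36.7 CPM per kb, all as means over the 6 libraries. A step followed among the on members, since the next, ap and zfh2, were at 14.9 and 14.8 CPM per kb. The gene hbn lay within this step at 20.7 CPM per kb, but was classed low through its 3.68 CPM in control library 3.

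The cofactors of the Hox proteins were both on at a high level. The gene exd, whose product binds DNA beside Hox proteins, had 514, 529 and 554 CPM in Prp3-RNAi libraries 1 to 3, against 641, 517 and 609.6 CPM in control libraries 1 to 3. The gene hth, whose product brings exd protein into the nucleus, had 784, 506 and 570.2 CPM in Prp3-RNAi libraries 1 to 3, against 511, 530.4 and 743 CPM in control libraries 1 to 3. These were among the steadiest members, with a highest library 1.25 times the lowest for exd and 1.55 times for hth, and both groups overlapped. Exons of hth overlap an antisense RNA gene over 1.75% of their length. The other TALE-class members, the Iroquois genes ara, caup and mirr, which lie side by side on chromosome 3L and pattern the eye and body wall, were all low. The gene mirr had 18.8, 33.04 and 3.46 CPM in Prp3-RNAi libraries 1 to 3, against 5.11, 24.3 and 21.97 CPM in control libraries 1 to 3. Its lowest values were Prp3-RNAi library 3 and control library 1. Its neighbour caup had 4.88, 7.90 and 1.34 CPM in Prp3-RNAi libraries 1 to 3, against 10.1, 5.52 and 2.34 CPM in control libraries 1 to 3, and ara had 0.498, 1.999 and 1.95 CPM in Prp3-RNAi libraries 1 to 3, against 0.721, 4.21 and 1.60 CPM in control libraries 1 to 3. The 3 neighbours were not high in the same libraries: caup was highest in control library 1, where ara and mirr were near their lowest.

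Of the PAX genes, both fly Pax6 genes were on, with toy far above ey, and the pair eyg and toe was near zero. The gene toy, which acts above ey in eye development and is used in parts of the brain, had 532, 364 and 299.5 CPM in Prp3-RNAi libraries 1 to 3, against 243, 295 and 315 CPM in control libraries 1 to 3. The highest value was Prp3-RNAi library 1, and Prp3-RNAi library 3 lay below control library 3. The gene ey, also a regulator of mushroom body neurons, had 10.1, 29.96 and 15.1 CPM in Prp3-RNAi libraries 1 to 3, against 10.5, 27.3 and 12.00 CPM in control libraries 1 to 3. In both groups library 2 was highest, and the pair differences of ey were small (-0.06, 0.13 and 0.33 on the log2 scale). Per kb of exon the mean level of ey was 4.70 CPM, against 87.1 CPM for toy. The genes eyg and toe had at most 1 and 21 counts in a library.

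LIM-homeobox genes, several of which direct axon paths and peptide identity of neurons, were on in 4 of 6 cases. Lim1 had 156, 178 and 131 CPM in Prp3-RNAi libraries 1 to 3, against 166, 195 and 105 CPM in control libraries 1 to 3. The gene ap, known for setting peptide identity in a group of nerve cord neurons, had 64.03, 70.7 and 61.1 CPM in Prp3-RNAi libraries 1 to 3, against 68.99, 90.4 and 31.4 CPM in control libraries 1 to 3, with control library 3 less than any other. These 2 genes differed little within pairs 1 and 2 (Lim1, -0.09, -0.13 and 0.32; ap, -0.11, -0.35 and 0.96 on the log2 scale for pairs 1 to 3). Lim3, a gene of motor neuron subtypes, had 14.3, 25.1 and 5.51 CPM in Prp3-RNAi libraries 1 to 3, against 7.43, 13.2 and 9.27 CPM in control libraries 1 to 3. Its partner in motor neurons, tup (the fly islet gene), had 13.3, 11.9 and 8.90 CPM in Prp3-RNAi libraries 1 to 3, against 25.1, 10.3 and 7.54 CPM in control libraries 1 to 3. In both the groups overlapped fully. CG4328, a gene related to the vertebrate Lmx1 genes, was classed low because of 1 library, and had 30.6, 31.3 and 12.6 CPM in Prp3-RNAi libraries 1 to 3, against 3.35, 18.3 and 18.4 CPM in control libraries 1 to 3. Awh had between 0 and 42 counts per library.

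The POU genes were all present. The highest was pdm3, which acts in olfactory neurons and had 39.2, 99.2 and 62.7 CPM in Prp3-RNAi libraries 1 to 3, against 87.00, 59.3 and 61.01 CPM in control libraries 1 to 3. The gene acj6, which sets receptor choice and wiring of olfactory neurons, had 20.5, 18.7 and 30.4 CPM in Prp3-RNAi libraries 1 to 3, against 13.5, 19.9 and 8.80 CPM in control libraries 1 to 3. The gene pdm2, a timing factor of neural stem cells, had 12.4, 8.09 and 11.2 CPM in Prp3-RNAi libraries 1 to 3, against 15.3, 10.8 and 15.8 CPM in control libraries 1 to 3. It was lower in Prp3-RNAi in all 3 pairs, by differences of -0.31, -0.41 and -0.50 on the log2 scale, at an unadjusted p of 0.355 by edgeR's quasi-likelihood test. Its neighbour nub had 2.49, 5.998 and 15.2 CPM in Prp3-RNAi libraries 1 to 3, against 16.1, 9.30 and 7.71 CPM in control libraries 1 to 3, and followed another pattern, with Prp3-RNAi library 1 lowest and control library 1 highest. The gene vvl, the one member with no annotated intron, had 7.11, 12.2 and 9.69 CPM in Prp3-RNAi libraries 1 to 3, against 4.57, 6.47 and 7.32 CPM in control libraries 1 to 3.

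Among the relatives of sine oculis, Optix was on. It had 5.15, 28.9 and 29.3 CPM in Prp3-RNAi libraries 1 to 3, against 18.9, 27.2 and 49.7 CPM in control libraries 1 to 3. Six4 had 1.20, 13.96 and 22.4 CPM in Prp3-RNAi libraries 1 to 3, against 5.39, 25.6 and 8.97 CPM in control libraries 1 to 3. For both, Prp3-RNAi library 1 was the lowest of all 6 libraries. Among CUT genes both were on. The gene onecut, widely used in neurons, had 268, 218 and 269.6 CPM in Prp3-RNAi libraries 1 to 3, against 283, 254 and 193 CPM in control libraries 1 to 3. The other, ct, which is treated with the comparison of groups, had a highest library 3.30 times its lowest, against 1.47 times for onecut. The zinc finger homeobox gene zfh2 had 191, 189.8 and 199.6 CPM in Prp3-RNAi libraries 1 to 3, against 211, 136 and 178 CPM in control libraries 1 to 3, and its exons overlap those of Tdg over 18.7% of their length. The gene zfh1, a regulator of motor neurons that is also used in blood cells and glia, had 12.96, 8.28 and 21.1 CPM in Prp3-RNAi libraries 1 to 3, against 3.45, 7.22 and 17.03 CPM in control libraries 1 to 3. Its 2 highest values were the third libraries of both groups, of which control library 3 held the hemocyte transcripts and Prp3-RNAi library 3 had Hml at 0.0342 CPM and NimC1 at 0. The part of other cells in the zfh1 values was not tested.

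Of the paired-like genes only otp was on in all libraries, and it was on unevenly. The gene otp had 38.7, 50.3 and 5.72 CPM in Prp3-RNAi libraries 1 to 3, against 17.7, 27.6 and 27.04 CPM in control libraries 1 to 3. Prp3-RNAi library 3 was the lowest by far. Its neighbours on chromosome 2R are hbn and Rx, with gaps of 51.3 kb between otp and hbn and 13.3 kb between otp and Rx. The gene hbn was present in all libraries (35.4 to 78.1 CPM in Prp3-RNAi libraries and 3.68 to 35.0 CPM in control libraries), and Rx, a brain and eye regulator, was low, with 1.06, 1.90 and 1.47 CPM in Prp3-RNAi libraries 1 to 3, against 0.533, 0.884 and 0 CPM in control libraries 1 to 3. Within the Prp3-RNAi group library 3 was the lowest for both otp and hbn. Within the control group otp was lowest in library 1 and hbn in library 3, which was the lowest of all libraries for hbn. The gene oc (orthodenticle), a regulator of the anterior brain and of photoreceptors, had 3.85, 9.11 and 7.40 CPM in Prp3-RNAi libraries 1 to 3, against 6.02, 7.85 and 5.89 CPM in control libraries 1 to 3. Ptx1, the fly Pitx gene, had 3.69, 5.71 and 7.67 CPM in Prp3-RNAi libraries 1 to 3, against 6.89, 4.35 and 3.29 CPM in control libraries 1 to 3. For oc and Ptx1 the groups overlapped, with a highest library 2.36 and 2.33 times the lowest. The photoreceptor gene Pph13 had at most 45 counts, in Prp3-RNAi library 2, and 3 or fewer in the others. The neighbours unc-4 and OdsH reached at most 99 and 27 counts.

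Of the NK-type genes and their relatives 3 of 13 were on. The gene scro, related to vertebrate Nkx2-1, was the highest, and Dr, an early dorsal regulator of neural stem cells, had 8.67, 18.4 and 5.96 CPM in Prp3-RNAi libraries 1 to 3, against 28.04, 21.5 and 9.71 CPM in control libraries 1 to 3. Dr was lower in Prp3-RNAi in all 3 pairs (-1.69, -0.22 and -0.70 on the log2 scale), at an unadjusted p of 0.105 by edgeR's quasi-likelihood test, and the groups overlapped. The gene Dll, best known for limbs, was on at a modest level and is given with the comparison. The gene bsh, which sets the identity of lamina neurons in the optic lobe, had 6.55, 10.4 and 3.97 CPM in Prp3-RNAi libraries 1 to 3, against 6.99, 5.73 and 5.37 CPM in control libraries 1 to 3. The gene slou had 1.16, 3.36 and 4.31 CPM in Prp3-RNAi libraries 1 to 3, against 15.4, 9.06 and 2.25 CPM in control libraries 1 to 3, and control library 1 was far above the rest. The neighbours B-H1 and B-H2 had at most 105 and 46 counts, and vnd at most 90. For these 3 the library with most counts differed: control 1 for B-H1 and vnd, and Prp3-RNAi 3 for B-H2.

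Present in some libraries only were lab, so, unpg and exex. The gene exex, which marks a class of motor neurons and is known in vertebrates as HB9, had 0, 78 and 48 counts in Prp3-RNAi libraries 1 to 3, against 0, 453 and 20 counts in control libraries 1 to 3. Most of its reads thus came from control library 2, and neither library of pair 1 had a count. The gene unpg had 0, 84 and 31 counts in Prp3-RNAi libraries 1 to 3, against 1, 208 and 44 counts in control libraries 1 to 3. It too was highest in control library 2 and next to absent from pair 1. The gene so, sine oculis itself, an eye gene, had 12, 24 and 152 counts in Prp3-RNAi libraries 1 to 3, against 15, 0 and 0 counts in control libraries 1 to 3, and only Prp3-RNAi library 3 passed 5 CPM. The Hox gene lab had 64, 130 and 0 counts in Prp3-RNAi libraries 1 to 3, against 105, 94 and 132 counts in control libraries 1 to 3, with its single 0 in Prp3-RNAi library 3, where a count of 0 allows up to 0.103 CPM (3 counts, counting error only). Libraries were made from cDNA of few cells, without a label on single molecules, so a count is a read and not a molecule. In the class of low genes, ems, en, Antp and Vsx1 had the same character: ems had 85 counts in Prp3-RNAi library 1 and at most 3 elsewhere, en had 44 and 135 counts in Prp3-RNAi libraries 1 and 2 and at most 14 elsewhere, and Antp had 96 counts in Prp3-RNAi library 1 and at most 1 elsewhere. Vsx1, a gene of the optic lobe, had 114 counts in Prp3-RNAi library 2 and at most 19 elsewhere. Such low genes also peaked in control libraries: in control library 1 B-H1 had 105 counts and vnd 90, with at most 23 and 28 elsewhere. The gene inv, the neighbour and relative of en, had at most 3 counts and did not share its reads.

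Near zero in all 6 libraries were abd-A, Abd-B, eyg, toe, al, OdsH and inv. Their highest count in a library was 1 for abd-A and eyg, 3 for al and inv, 20 for Abd-B, 21 for toe and 27 for OdsH.

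Of the Hox genes 0 of 8 were on, and in each library the summed counts of the head-side Antennapedia complex were above those of the bithorax complex, though single genes did not follow this order: Ubx was above Scr and Dfd in control library 3. Both complexes lie on chromosome 3R. In Prp3-RNAi libraries 1 to 3 the 5 genes of the Antennapedia complex summed to 683, 682 and 467 counts, against 346, 368 and 388 counts in control libraries 1 to 3. The 3 genes of the bithorax complex summed to 1, 21 and 0 counts in Prp3-RNAi libraries 1 to 3, against 47, 85 and 103 counts in control libraries 1 to 3. Within the Antennapedia complex Dfd, which patterns the jaw segments, was the steadiest, and had 2.33, 2.63 and 3.39 CPM in Prp3-RNAi libraries 1 to 3, against 2.04, 1.59 and 2.82 CPM in control libraries 1 to 3. Its neighbour pb had 7.34, 6.60 and 1.16 CPM in Prp3-RNAi libraries 1 to 3, against 2.32, 3.11 and 6.67 CPM in control libraries 1 to 3. For pb, Prp3-RNAi library 3 was lowest and was next to the 0 of lab in the same library. Exons of Antp overlap CG46458 over 50.1% of their length, so its counts are less certain. Scr and Ubx, the Hox genes whose groups did not overlap, are described with the comparison.

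**Figure D2:**
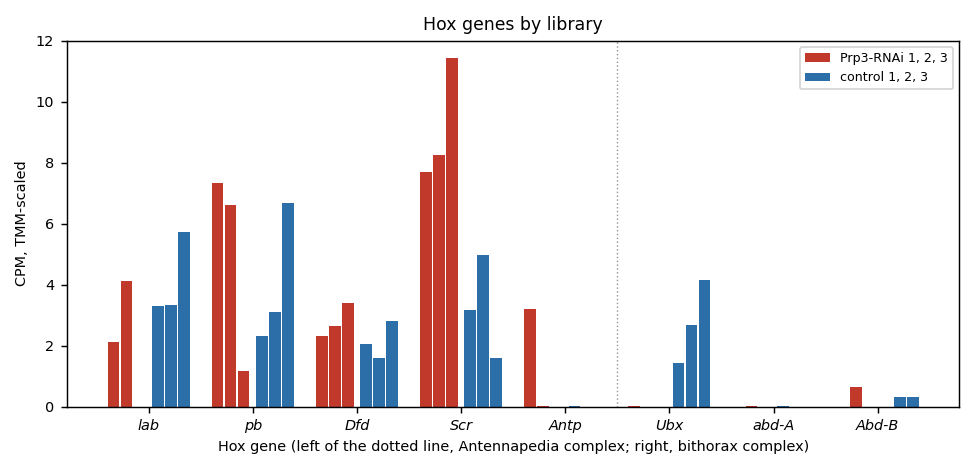
CPM of the 8 Hox genes in Prp3-RNAi libraries 1 to 3 (red bars, left) and control libraries 1 to 3 (blue bars, right), in the order of the chromosome within each complex. Scr reaches 7.71 to 11.4 CPM in Prp3-RNAi libraries, and Ubx has bars in the control libraries at 1.44 to 4.16 CPM.

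The comparison of Prp3-RNAi with control asked how a hairpin against the gene of a spliceosome protein changes the transcripts of clock neurons. The level of the protein is not part of these data. Of the 8708 genes tested with edgeR's quasi-likelihood test, with the pair as a block, 0 (0%) had an adjusted p-value under 0.05, and none of the 48 members that passed the filter on low counts was called. The adjusted p-values of the members ran from 0.422 to 1. An unadjusted p-value under 0.05 was reached by 5 of 48 members, or 10.4%, beside 869 of 8708 genes, or 9.98%, and by 4 members higher and 1 lower in Prp3-RNAi, beside 4.71% and 5.27% of all tested genes. Thus homeobox genes reached this level about as often as genes in general. DESeq2 with the same block called 380 genes (4.36%), among them 3 members, Ubx, hbn and ct, and edgeR without the block called 8 genes (0.0919%) and 0 members. Of the 48 tested members 30 had a log2 fold change above 0 and 18 below 0, a share of 62.5% above 0 beside 50.9% of all tested genes, and their median was 0.12, beside 0.01 for all tested genes. By pair the median difference of the members was -0.09, 0.33 and 0.27 on the log2 scale, so the tilt did not hold in pair 1. In all 3 pairs 10 members were higher in Prp3-RNAi and 4 lower, shares of 20.8% and 8.33%, beside 17.5% and 17.6% of all tested genes. Groups did not overlap for 6 members higher in Prp3-RNAi and 1 lower, shares of 12.5% and 2.08%, beside 6.27% and 5.34% of all tested genes. The 11 members that did not pass the filter were Antp, abd-A, Abd-B, Awh, eyg, toe, al, Pph13, OdsH, ems and inv, and they have values only.

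**Figure D3:**
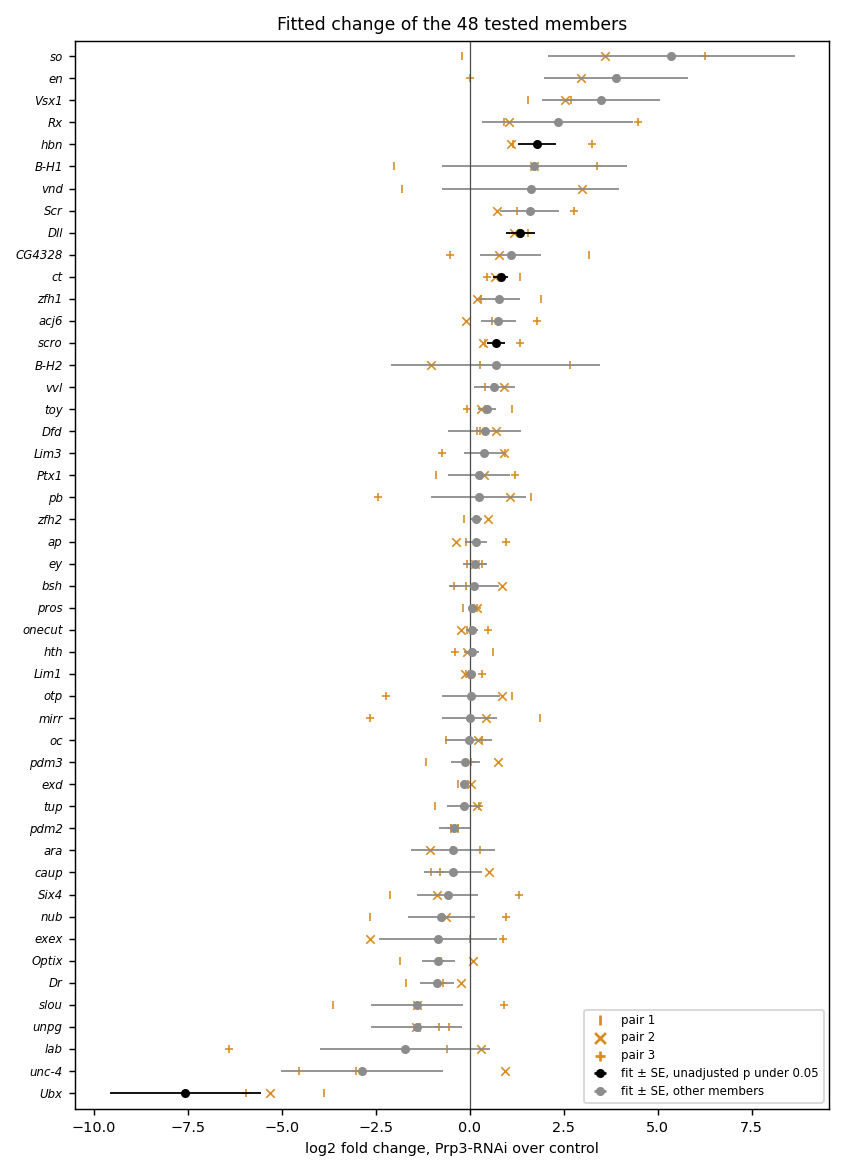
Log2 fold change of the 48 tested members, Prp3-RNAi over control, with the standard error as a bar, and the 3 within-pair differences as small marks. The 5 members in black, hbn, Dll, ct, scro and Ubx, have an unadjusted p-value under 0.05, and none has an adjusted p-value under 0.05.

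The 5 members with the smallest p-values were ct, Ubx, hbn, Dll and scro, and each had the same direction in all 3 pairs and groups that did not overlap. They were picked by p-value from a fit on the same pairs, which favours such genes, so this agreement is no separate support. With pair 3 left out, ct and hbn of these 5 still had an unadjusted p-value under 0.05 by edgeR, and with pair 2 left out ct, hbn and scro did. The gene ct (chromosome X, 7608428 to 7678859), which codes for the homeodomain protein Cut, a regulator of sensory organs and of dendrite shape, had 213, 103 and 119.7 CPM in Prp3-RNAi libraries 1 to 3, against 84.6, 64.7 and 87.00 CPM in control libraries 1 to 3. Prp3-RNAi library 1 was well above the other 2 of its group, and all 3 were above the highest control library. The pair differences were 1.33, 0.67 and 0.46 on the log2 scale, the log2 fold change was 0.82 (SE 0.20), and edgeR's quasi-likelihood test gave a p-value of 0.00857 before adjustment and 0.422 after. DESeq2 called it at an adjusted p-value of 0.0173, in a range of 0.0173 to 0.834 over the alternatives.

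The gene hbn (chromosome 2R, 20954668 to 20960909), homeobrain, a paired-like gene first seen in the developing brain, had 78.1, 48.8 and 35.4 CPM in Prp3-RNAi libraries 1 to 3, against 35.03, 22.6 and 3.68 CPM in control libraries 1 to 3. In both groups library 1 was highest and library 3 lowest, and Prp3-RNAi library 3 lay just above control library 1, so that the gap between the groups was 0.376 CPM wide. Its mean was 54.1 ± 21.8 CPM in the Prp3-RNAi group and 20.4 ± 15.8 CPM in the control group (SD, n = 3 each). The pair differences of 1.15, 1.11 and 3.24 on the log2 scale gave a log2 fold change of 1.79 (SE 0.50), which edgeR's quasi-likelihood test placed at p-values of 0.0140 unadjusted and 0.430 adjusted. Without pair 3 the log2 fold change was 1.14 by edgeR. DESeq2 gave an adjusted p-value of 0.00803, in a range of 0.00803 to 0.999 over the alternatives.

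The gene Dll (chromosome 2R, 24814822 to 24835667), Distal-less, a regulator of limbs and of some brain regions, had 17.2, 21.99 and 16.7 CPM in Prp3-RNAi libraries 1 to 3, against 6.99, 9.69 and 5.63 CPM in control libraries 1 to 3. The 3 pair differences were alike, at 1.29, 1.18 and 1.55 on the log2 scale, and the lowest Prp3-RNAi library was 1.72 times the highest control library. In edgeR's quasi-likelihood test Dll had a log2 fold change of 1.35 (SE 0.40) at p-values of 0.0176 unadjusted and 0.435 adjusted. Of the 5 it changed least between alternatives, with log2 fold changes from 1.24 to 1.44.

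The gene scro (chromosome 3L, 24724162 to 24758036), scarecrow, is expressed in the brain and optic lobe, and had 118, 138 and 136 CPM in Prp3-RNAi libraries 1 to 3, against 88.5, 108 and 53.9 CPM in control libraries 1 to 3. Pair 3 carried the largest difference, through the low value of control library 3, with pair differences of 0.41, 0.35 and 1.34 on the log2 scale. By edgeR's quasi-likelihood test scro differed by 0.70 (SE 0.23) on the log2 scale, at p-values of 0.0282 unadjusted and 0.466 adjusted. Without pair 3 it was 0.38 by edgeR, and it was among the highest members per kb of exon in both groups, with 62.1 CPM per kb in Prp3-RNAi and 39.7 CPM per kb in control.

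Ubx (chromosome 3R, 16656623 to 16734426), Ultrabithorax, the Hox gene of the hind thorax and front abdomen, was the one member of the 5 that was lower in Prp3-RNAi. It had 1, 0 and 0 counts in Prp3-RNAi libraries 1 to 3, against 46, 76 and 96 counts in control libraries 1 to 3. In CPM it had 0.0332, 0 and 0 CPM in the Prp3-RNAi libraries, against 1.44, 2.69 and 4.16 CPM in the control libraries. All 3 control libraries held 46 to 96 counts, and 2 of the 3 Prp3-RNAi libraries held 0, which allows up to 0.0952 and 0.103 CPM (3 counts) in libraries 2 and 3. Summed over the groups, 1 count stood against 218 counts, so that the Prp3-RNAi level was 0.421% of the control level, and the control level was 238 times the Prp3-RNAi level with an exact 95% interval of 42.2 to 9433 that covers counting error only. The fitted log2 fold change of -7.56 (SE 2.01) rests on 1 count in the Prp3-RNAi group. In edgeR's quasi-likelihood test the p-values were 0.0119 unadjusted and 0.428 adjusted, while DESeq2 gave an adjusted p-value of 0.00397, in a range of 0.00397 to 0.809 over the alternatives. The filter of at least 50 counts removed the gene. In the main fit and in DESeq2 it passed the filter on low counts through its control libraries alone. Its p-values and its DESeq2 call are thus no separate support for a difference. At 1.44 to 4.16 CPM in control, Ubx was a low gene in either group, and its overlap with the exons of asRNA:PS4 covers 1.19% of its exonic length.

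**Figure D4:**
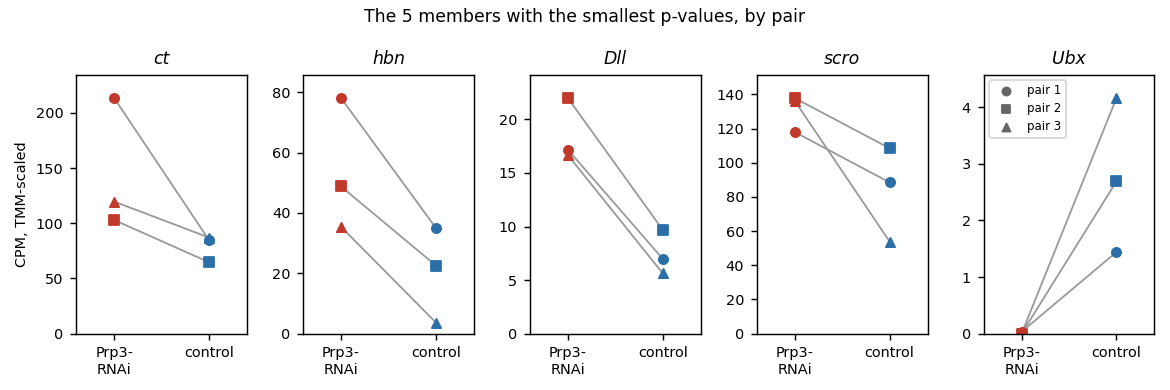
CPM of ct, hbn, Dll, scro and Ubx in each library, with Prp3-RNAi at the left and control at the right of each panel, lines joining the pairs and every axis from 0. For ct, hbn, Dll and scro the 3 Prp3-RNAi points lie above the 3 control points, and for Ubx they lie at 0 to 0.0332 CPM, below the control points.

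A log2 fold change over 1 in size with the same sign in all 3 pairs was found for 7 of 48 members, or 14.6%, beside 8.2% of all tested genes. Of these, 5 were higher in Prp3-RNAi (10.4% of the members, beside 4.56% of all tested genes) and 2 lower (4.17%, beside 3.64%). Beside hbn, Dll and Ubx they were Scr, Rx, Vsx1 and unpg. The shares are not matched for level, since 20 of the 48 tested members were on, beside 5997 of the 8708 tested genes. For on members the median size of the log2 fold change was 0.16, beside 0.20 for all on genes tested. It was 0.77 beside 0.82 in the low class, and 1.57 beside 1.55 for genes present in some libraries only. Scr, the Hox gene of the labial and first thoracic segments, had 7.71, 8.25 and 11.4 CPM in Prp3-RNAi libraries 1 to 3, against 3.16, 4.99 and 1.60 CPM in control libraries 1 to 3. Its groups did not overlap, its pair differences were 1.27, 0.72 and 2.78 and its log2 fold change was 1.59 (SE 0.78), at an unadjusted p of 0.0939 by edgeR's quasi-likelihood test. For Rx the log2 fold change was 2.34 (SE 2.01) on 0 to 60 counts per library, and its groups did not overlap either. For Vsx1 it was 3.48 (SE 1.57), and most reads came from Prp3-RNAi library 2. For unpg it was -1.41 (SE 1.20), and the pair 1 difference rested on 0 counts against 1. The unadjusted p-values of Rx, Vsx1 and unpg were 0.294, 0.0748 and 0.291 in edgeR's quasi-likelihood test, none under 0.05. Of the markers tested, Trissin, CNMa, CCHa1, Dh31, cry, vri, cwo and Syt1 were lower in Prp3-RNAi in all 3 pairs. Higher in all 3 were the photoreceptor genes ninaC and Arr2, the glia marker alrm, the Kenyon cell markers Dop1R2 and rut and the pan-neuronal marker para. Of the 11 photoreceptor markers tested, 6 had a log2 fold change above 0 and 5 below. Tested members picked here for a part in the eye or optic lobe also went both ways. The pick is not a full list, so the balance between the directions is no result. Above 0 were scro, Rx, Vsx1, so, toy, ey and bsh. Below 0 were Optix, Six4, oc, ara and caup, with mirr at -0.00043. Of these, bsh, Six4, oc and mirr changed sign when a pair was left out. What part the cells behind these markers had in the values of the members was not tested.

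For many members the pairs went opposite ways. In pair 3 the log2 difference of Prp3-RNAi minus control was -6.39 for lab, where the Prp3-RNAi library had 0 counts, -2.45 for pb, -2.64 for mirr and -2.23 for otp, while all but lab of these 4 genes were higher in Prp3-RNAi in pairs 1 and 2. In pair 1, Prp3-RNAi was far below control for slou (-3.65), nub (-2.66), Six4 (-2.11) and Optix (-1.86), while in pair 3 slou, nub and Six4 were higher in Prp3-RNAi (0.92, 0.97 and 1.32). Of the 48 tested members, 30 kept the sign of their log2 fold change in every alternative in which they could be fitted and 18 did not, each of them when 1 pair was left out. The level of a member and its spread went together. The biological coefficient of variation is edgeR's estimate of the spread beyond counting that is left after the pair and group effects. Its median was 29.8% over the 20 on members (15.7% for Lim1 to 56.8% for otp), beside 21.3% over the 5997 tested genes of the same class. It was 81.6% over the 24 low members that were tested, beside 96.3% over 1825 tested genes of that class, and 118% over the 4 members present in some libraries only, beside 111% over 774 genes. Between genes of the same class these medians differ in level as well, and they are a description.

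**Figure D5:**
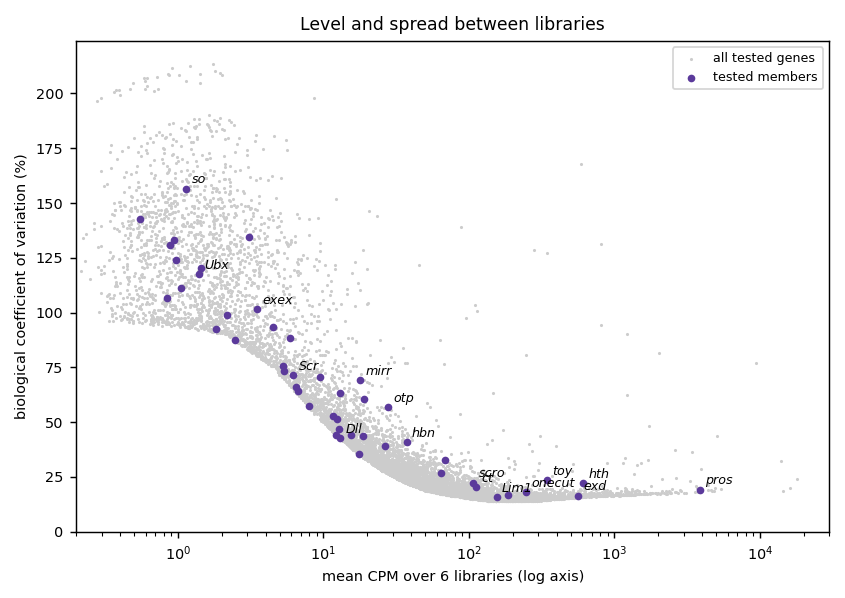
Biological coefficient of variation in percent, as left after the pair and group effects, against mean CPM over the 6 libraries (log axis) for the 8708 tested genes (grey) and the 48 tested members (purple). The scatter narrows with level, from 156% for so to 15.7% for Lim1, and otp (56.8%) and mirr (69.1%) lie high for their level.

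A list of 43 further fly homeobox genes, drawn up from general knowledge, was read in the same way. Of these 3 were on, 15 low, 7 present in some libraries only and 18 near zero. The on genes were NK7.1, CG18599 and CG32532. NK7.1 had 73.1, 92.3 and 57.6 CPM in Prp3-RNAi libraries 1 to 3, against 63.3, 95.97 and 61.9 CPM in control libraries 1 to 3. Among the genes near zero were early embryonic regulators such as bcd, eve, prd and cad, none above 0.444 CPM. Of the 23 that passed the filter 17 had a log2 fold change above 0 and 6 below, beside 50.9% of all tested genes above 0. Their median was 0.63, beside 0.01 for all tested genes. By edgeR's quasi-likelihood test 0 were called, and 0 had an unadjusted p-value under 0.05, beside 9.98% of all tested genes. DESeq2 called 1, C15 (log2 fold change 6.25, adjusted p-value 0.0190), beside 4.36% of all tested genes. C15 had 3.09, 1.43 and 9.83 CPM in Prp3-RNAi libraries 1 to 3, against 0, 0 and 5.29 CPM in control libraries 1 to 3. Its groups overlapped, and edgeR's quasi-likelihood test gave p-values of 0.0802 unadjusted and 0.552 adjusted.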

How the data were processed

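RNA of about 2000 sorted cells per sample was read from 3 Prp3-RNAi and 3 control libraries. The deposited files hold whole-number read counts per gene, which the authors made with Trim Galore 0.6.7 and STAR 2.7.0a on build dm6, per the submitters' processing notes; the annotation and the counting settings are not given in the sources used here. Counts of both strands together were used, since the forward strand column held 50.0% to 50.1% of the stranded gene counts. Lines without a gene name held 18.5% to 24.4% of a library's reads and were left out. Depth was 24477244 to 32551739 gene counts, so counting error was small beside the spread between libraries for all but low genes; limits given for a count of 0 and intervals of count ratios cover counting error only.

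Counts were tested with edgeR 4.0.16 (glmQLFit and glmQLFTest, two-sided, R 4.3.3), with TMM scaling, filterByExpr (minimum count 10, minimum total 15) and the replicate number as a block, over 8708 of 17868 genes, with Benjamini-Hochberg adjustment over all of them and a threshold of 0.05. Standard errors are the log2 fold change over the square root of F, and log2 CPM for pair differences used a prior count of 2. The pairing comes from the titles. Deviations from the group means correlated at 0.05, 0.27 and 0.24 for libraries 1 to 3 with the same number, across genes. Alternatives were no block, RLE size factors, a filter keeping any gene with 1 count, a filter of 50 counts in 3 libraries, DESeq2 1.42.0 and each pair left out.

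Members and lists were chosen with earlier results of these data known. All members are accounted for: values per library are given for members that are on or present in some libraries only, and fold changes for those with an unadjusted p-value under 0.05 or with a log2 fold change over 1 in size and the same sign in all pairs; values of other members are added. Symbols of all 59 members matched the Ensembl annotation of BDGP6.54, which gave positions, exonic lengths and overlaps. In the further homeobox list, Lmx1a and HHEX were matched through older symbols in RefSeq's table.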

Additional observations from a re-analysis of the deposited data

How the results depend on the processing

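No gene was called by edgeR with the block at an adjusted p-value under 0.05 (869 at an unadjusted one). The number called was 8 with no replicate block, 11 with the filter of at least 1 count, 4 with the filter of at least 50 counts, 380 with DESeq2 and 0 to 4 when a pair was left out. Genes at an unadjusted p-value under 0.05 numbered 421 with no replicate block and 529 to 756 with a pair left out. Members called were 0 in all fits but DESeq2, which called 3 and gave 8 at an unadjusted p-value under 0.05, against 5 by edgeR with the block; the number lay between 4 and 7 with a pair left out, and 4 of the 5 (all but hbn) were found with no replicate block. Prp3 had a log2 fold change of -1.17 by DESeq2 (adjusted p-value 0.00883), the one alternative of 8 that called it.

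The number of on members was 12 with a limit of 10 CPM. With a limit of 2 CPM, 10 members were low and 13 present in some libraries only; with 10 CPM, 1 was present in some libraries only. Setting near zero under 2 CPM gave 11 near zero and 9 in some libraries only, and under 0.5 CPM gave 4 near zero. Leaving out a pair left 2 to 3 members in some libraries only and 9 to 11 near zero.

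Signs turned with no replicate block for mirr (0.11), Lim1 (-0.0017), oc (0.043), vnd (-0.49) and B-H1 (-0.69). Over the 3 fits that left out a pair, log2 fold changes ran from -0.088 to 3.68 for B-H1, -1.03 to 2.46 for B-H2, -0.11 to 0.12 for Lim1, -0.25 to 0.82 for Ptx1, -1.51 to 0.23 for Six4, -0.23 to 0.43 for ap, -0.26 to 0.39 for bsh, -2.48 to 0.78 for exex, -0.21 to 0.28 for hth, -1.07 to 1.16 for mirr, -1.66 to 0.18 for nub, -0.21 to 0.28 for oc, -0.15 to 0.21 for onecut, -0.65 to 0.9999 for otp, -0.69 to 1.37 for pb, -0.55 to 0.40 for pdm3, -0.36 to 0.23 for tup and -0.032 to 3.49 for vnd; the cause was not tested. These genes could not be given a direction. The log2 fold changes of ct, hbn, Dll, scro and Ubx kept their sign in every fit that tested them. This is no separate support for their direction. They were picked by p-value in the main fit, and for each of them no pair went against the others. Leaving out a pair could thus hardly turn a sign. Dll and scro were called in none of the fits.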
